A study of Mus musculus with 29 samples.

Results

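The major urinary proteins are small secreted carrier proteins of mouse liver, encoded by the Mup genes. The genes described here were listed by symbol as Mup1, Mup3, Mup7, Mup10, Mup14, Mup17, Mup19, Mup20 and Mup21, and are 9 of the 22187 genes in the deposited table. Another 12 Mup genes are in the table. The 9 hold 87.7% to 98.0% of all Mup counts in the non-tumour libraries and 94.3% to 99.4% in the tumour libraries.

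Livers of C57BL/6 mice were profiled by RNA sequencing in 29 libraries. Every animal, controls included, had received the liver carcinogen diethylnitrosamine (DEN) at 25 mg/kg by intraperitoneal injection at 2 weeks of age and was then fed for 18 weeks. The libraries come from tumours or from non-tumour liver, from mice labelled WT or IL17RA-/- (the receptor subunit for interleukin 17A), and from 2 diets that the sample labels call HFD and HFD_alcohol, here HFD and alcohol. The series description speaks instead of liquid ethanol feeding against pair-feeding. Non-tumour liver had 3 HFD WT, 3 HFD IL17RA-/-, 5 alcohol WT and 5 alcohol IL17RA-/- libraries. Tumours had 3 HFD WT, 3 HFD IL17RA-/-, 3 alcohol WT and 4 alcohol IL17RA-/- libraries. The labels give neither the sex of the mice nor the promoter, exons or source of the receptor allele. Nor do they say which libraries come from the same mouse. The p-values therefore reflect library-to-library spread, part of which may be technical. There was no liver without DEN, so the non-tumour libraries are liver of carcinogen-treated mice.

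Expression is in CPM, the counts of a gene scaled to a common library total. Library depth, recovered from the values, lay between 4653422 and 9660584 counts for non-tumour liver and between 3213696 and 9169116 for tumours. A floor of 3 counts therefore equals 0.311 to 0.934 CPM, depending on the library, and accounts for counting error alone. Il17ra itself was not called lower under the IL17RA-/- label in either tissue. Its group means, labelled IL17RA-/- first, were 26.1 against 27.5 CPM in non-tumour alcohol liver, 24.5 against 26.3 in non-tumour HFD liver, 50.4 against 33.2 in alcohol tumours and 59.4 against 32.8 in HFD tumours. The genotype is given throughout as labelled.

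Major urinary proteins belong to the lipocalins, barrel-shaped proteins that hold small hydrophobic molecules. Hepatocytes secrete them into the blood, and the kidney passes them into urine, where they release bound volatile pheromones slowly. In mouse liver their transcription is known to depend on pulsatile growth hormone acting through the transcription factor STAT5B, and most of them are higher in males than in females. Mup20 encodes darcin, a male urinary protein that is itself a pheromone. In bulk tissue, fewer hepatocytes and less Mup RNA per hepatocyte cannot be told apart.

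The genes lie together on chromosome 4. In GENCODE M21 (GRCm38) the 22 protein-coding Mup genes span chr4:59956804-62150863, 2.19 Mb, with 26 Mup pseudogenes on the same chromosome. Mup7 (ENSMUSG00000073842, chr4:60066469-60070475), Mup1 (ENSMUSG00000078683, chr4:60498012-60501960), Mup10 (ENSMUSG00000078680, chr4:60578260-60582199), Mup14 (ENSMUSG00000073830, chr4:61300023-61304000), Mup17 (ENSMUSG00000096688, chr4:61591929-61595871) and Mup19 (ENSMUSG00000078673, chr4:61778324-61782269) form the central part of the cluster. Mup20 (ENSMUSG00000078672, chr4:62050234-62054158), Mup3 (ENSMUSG00000066154, chr4:62083476-62087342) and Mup21 (ENSMUSG00000066153, chr4:62147932-62150863) lie at its far end. All 9 are annotated on the minus strand.

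The 6 central copies are nearly the same gene. Their coding sequences are 543 bases long, and any pair differs at 3 to 8 positions (98.5% to 99.4% identity). Mup20 is 90.1% to 91.0% identical to them, Mup21 83.7% to 84.6% and Mup3 82.4% to 83.3%, while Mup3 and Mup21 are 94.8% identical to each other. The first 90 coding bases of 7 of the genes, read from the GENCODE transcripts, are shown because they make plain how little separates the central copies. Capitals mark bases that are not paired with an identical base of Mup7 in an alignment of the coding sequences.
Mup7: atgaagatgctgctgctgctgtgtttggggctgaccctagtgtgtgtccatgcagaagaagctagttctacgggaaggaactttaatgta
Mup1: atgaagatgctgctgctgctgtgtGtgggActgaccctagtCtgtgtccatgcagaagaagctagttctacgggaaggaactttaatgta
Mup17: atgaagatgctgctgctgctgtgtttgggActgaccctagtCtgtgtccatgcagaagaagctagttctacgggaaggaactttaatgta
Mup10: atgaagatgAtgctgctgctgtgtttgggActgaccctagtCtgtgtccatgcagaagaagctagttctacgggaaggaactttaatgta
Mup20: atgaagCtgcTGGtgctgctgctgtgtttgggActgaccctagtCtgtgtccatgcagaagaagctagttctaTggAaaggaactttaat
Mup21: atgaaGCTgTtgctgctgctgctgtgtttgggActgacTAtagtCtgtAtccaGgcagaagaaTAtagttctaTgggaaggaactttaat
Mup3: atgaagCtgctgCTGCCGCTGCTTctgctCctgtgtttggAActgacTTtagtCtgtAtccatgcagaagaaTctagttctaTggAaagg
In this stretch Mup1, Mup17 and Mup10 differ from Mup7 at 3, 2 and 3 bases, and Mup20, Mup21 and Mup3 at 8, 13 and 23.

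This likeness limits what the count of a single central copy can mean. The read length is not given in the sources used here, so 2 window lengths were counted. Of the 50-base windows along the transcript used for each gene, the share found in no other annotated gene was 0% for Mup19, 2.40% for Mup14, 3.64% for Mup7, 5.24% for Mup1, 13.8% for Mup10 and 21.9% for Mup17. It was 49.5% for Mup20, 80.7% for Mup21 and 84.4% for Mup3. With 100-base windows it was 0% for Mup19, 8.60% for Mup14, 12.9% for Mup7, 12.8% for Mup1, 14.6% for Mup10, 40.6% for Mup17, 61.2% for Mup20, 95.5% for Mup21 and 97.1% for Mup3. The authors' estimated counts divide shared reads between copies, so values of the 6 central genes are uncertain one by one, and their sum and the values of Mup20, Mup3 and Mup21 carry more of the account below.

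Promoter windows from RefSeq (GRCm38.p6), 250 bases before to 50 after the gene start, were matched by symbol for 7 of the 9 genes. The genes without an entry are Mup1 and Mup20. The windows are shown as a description, and their part in the tissue differences below was not tested. The TATA element TATATAA, searched on both strands, was in 6 of the 7 windows and in 3.24% of all 32851 windows of this length. The window without it is that of Mup7, so no Mup7 sequence is shown here. The sequences below hold the element, in capitals, and the 100 bases before it on the gene's strand. GENCODE starts the gene 14 bases before the element in each case.
Mup3 (chr4:62087322-62087428, minus strand): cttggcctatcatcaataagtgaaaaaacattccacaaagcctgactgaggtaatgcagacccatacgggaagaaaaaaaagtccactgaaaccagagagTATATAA
Mup21 (chr4:62150843-62150949, minus strand): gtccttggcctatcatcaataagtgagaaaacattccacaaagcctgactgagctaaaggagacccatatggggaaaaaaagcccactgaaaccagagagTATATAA
Mup10 (chr4:60582179-60582285, minus strand): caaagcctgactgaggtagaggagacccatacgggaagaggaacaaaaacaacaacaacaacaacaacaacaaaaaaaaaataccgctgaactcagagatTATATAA
Mup14 (chr4:61303980-61304086, minus strand): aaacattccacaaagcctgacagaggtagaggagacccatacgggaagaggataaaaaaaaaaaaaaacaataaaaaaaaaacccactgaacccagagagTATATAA
Mup17 (chr4:61595851-61595957, minus strand): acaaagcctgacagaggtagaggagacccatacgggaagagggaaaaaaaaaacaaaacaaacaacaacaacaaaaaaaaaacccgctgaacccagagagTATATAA
Mup19 (chr4:61782249-61782355, minus strand): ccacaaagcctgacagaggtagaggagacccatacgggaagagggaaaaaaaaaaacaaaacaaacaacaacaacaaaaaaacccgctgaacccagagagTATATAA
Adenine made up 60.0% to 63.1% of the 65 bases before the element in the central genes shown, against 43.1% in Mup3 and 41.5% in Mup21. The palindrome TTCNNNGAA, the letters that STAT proteins bind, was in none of the 7 windows on either strand and in 8.3% of all windows, which says only that these letters are absent from these stretches.

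In non-tumour liver the Mup genes were among the abundant hepatocyte transcripts. The sum of the 9 ran from 12993 to 46309 CPM over the 16 non-tumour libraries, with a median of 21369, or 1.3% to 4.63% of the library. Per kilobase of exon, on the scale of CPM per kb, the non-tumour medians were 9213 for Mup20, 4829 for Mup3, 4489 for Mup10, 2524 for Mup19, 1881 for Mup14, 853 for Mup7, 310 for Mup17, 92.2 for Mup21 and 29 for Mup1. Mup20 was the highest of the 9 by CPM in 12 of 16 non-tumour libraries, Mup3 in 3 and Mup10 in 1. The order of the central genes rests on how shared reads were divided.

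In tumours all 9 genes fell. The sum ran from 1094 to 7416 CPM over the 13 tumour libraries, with a median of 2982, or 0.109% to 0.742% of the library, and no tumour library reached the lowest non-tumour library. The mean over the 4 combinations of diet and genotype was 25421 CPM in non-tumour liver and 3340 in tumours, 7.61 times lower. Taken without Mup20, the sum was 24.1 times lower (16839 against 699 CPM), and the 6 central copies together were 31.3 times lower (11629 against 372 CPM).

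**Figure D1:**
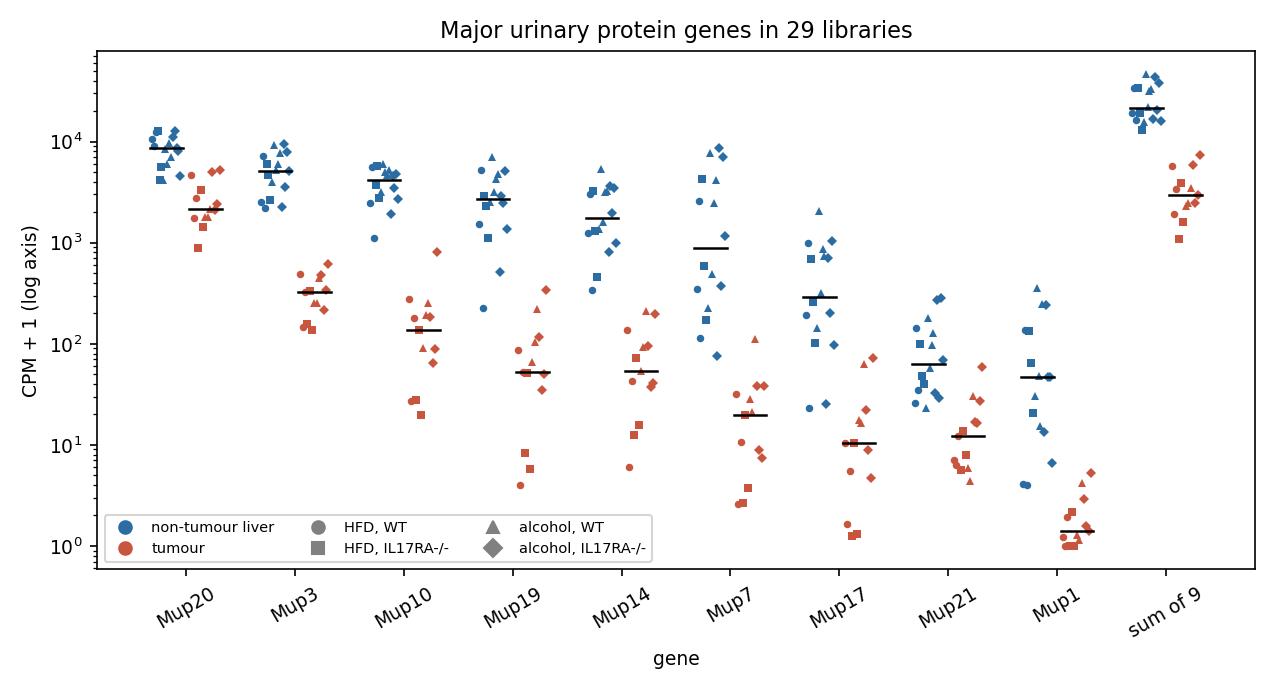
Each point is 1 library, with CPM + 1 on a log axis, for the 9 genes and their sum; blue marks the 16 non-tumour and red the 13 tumour libraries, the symbol gives diet and genotype label, and black lines are medians. The sum lies between 12993 and 46309 CPM in non-tumour liver and between 1094 and 7416 in tumours, and Mup20 shows the smallest gap between tissues.

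Mup20, the gene of darcin, was lower in tumours by the least. It ranged from 4154 to 12877 CPM in non-tumour libraries, with a median of 8549, and from 887 to 5287 in tumours, with a median of 2136. The ranges overlap: in 199 of the 208 pairs of a tumour and a non-tumour library the tumour was lower. The log2 fold change was -1.78 ± 0.22 (SE), with an adjusted p of 2.1e-07 by limma over all 29 libraries, Benjamini-Hochberg adjusted over all 13586 genes tested. Fold changes here are differences of log2(CPM + 1), averaged over the 4 combinations of diet and genotype, and shrink toward 0 for genes of low CPM.

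Mup3, which has the largest share of its transcript to itself, ranged from 2213 to 9438 CPM in non-tumour libraries, with a median of 5157, and from 135 to 611 in tumours, with a median of 322. No tumour library reached the lowest non-tumour one. Its log2 fold change was -4.02 ± 0.25 (SE), with an adjusted p of 1.7e-12 by limma. Mup21, its closest relative by sequence, is a low gene: 22.4 to 281 CPM in non-tumour libraries, with a median of 62.4, and 3.4 to 57.6 in tumours, with a median of 11.2. These ranges overlap, and the log2 fold change was -2.57 ± 0.40 (SE), with an adjusted p of 5.3e-06 by limma.

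Among the central copies, Mup7 showed the largest change, a log2 fold change of -5.98 ± 0.73 (SE), with an adjusted p of 1.2e-07 by limma. It ranged from 74.7 to 8693 CPM in non-tumour libraries, with a median of 882, and from 1.6 to 109.6 in tumours, with a median of 18.7. Mup19 changed by -5.57 ± 0.51, Mup10 by -5.04 ± 0.38, Mup14 by -5.01 ± 0.45 and Mup17 by -4.98 ± 0.62 on the log2 scale. Mup1 changed by -4.46 ± 0.58, from 3.03 to 352 CPM in non-tumour liver to 0 to 4.21 CPM in tumours. In tumours it was at or under 3 counts in 6 of 13 libraries and reached 1 CPM in 4, so its change is bounded by depth. Those 4 libraries alone would have passed it through the filter on low values.

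All 9 genes passed that filter (1 CPM in at least 3 libraries) and all 9 were called lower, where 27% of all genes tested were called lower, 36.6% higher and 63.6% in either direction. Their median log2 fold change was -4.98, against 0.09 over all genes tested. Mup3, Mup10 and Mup14 separated all 16 non-tumour from all 13 tumour libraries without overlap, 3 of 9, where 3.3% of genes were lower in this way. Leaving out each of the 29 libraries in turn kept all 9 calls, with Mup20 between -1.91 and -1.66 and Mup3 between -4.12 and -3.88.

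The fall was seen within each diet and genotype label. In alcohol WT mice 9 of 9 genes were called lower (19.2% of all genes), in HFD IL17RA-/- mice 9 (16.5%), in alcohol IL17RA-/- mice 8 (18.1%) and in HFD WT mice 8 (7.61%). The 2 that missed the threshold were Mup21 in alcohol IL17RA-/- mice (log2 fold change -1.75 ± 0.71, adjusted p = 0.051 by limma) and Mup1 in HFD WT mice (-3.28 ± 1.24, adjusted p = 0.076). Within these combinations the tumour libraries lay below all non-tumour libraries for 8 genes in alcohol WT mice (20% of all genes), 9 in HFD IL17RA-/- (22.3%), 6 in alcohol IL17RA-/- (14.5%) and 9 in HFD WT mice (10.3%). The count of calls in HFD WT mice rests on few libraries: it was 5 without non-tumour replicate 2, 4 without tumour replicate 5 and 5 when only these 6 libraries were fitted. Without 4 libraries doubted in an earlier description (tumour HFD WT replicate 4 and alcohol IL17RA-/- replicate 5, non-tumour HFD WT replicate 1 and HFD IL17RA-/- replicate 3), 7 genes were called in HFD WT mice, and the other counts of calls were as above. Mup21 in HFD WT and HFD IL17RA-/- mice and Mup20 in HFD WT mice are among the calls lost when a single library was left out. Mup3 kept its call in each of the 4 combinations whichever library was left out, with log2 fold changes of -3.60, -4.45, -4.33 and -3.70 in HFD WT, HFD IL17RA-/-, alcohol WT and alcohol IL17RA-/- mice.

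**Figure D2:**
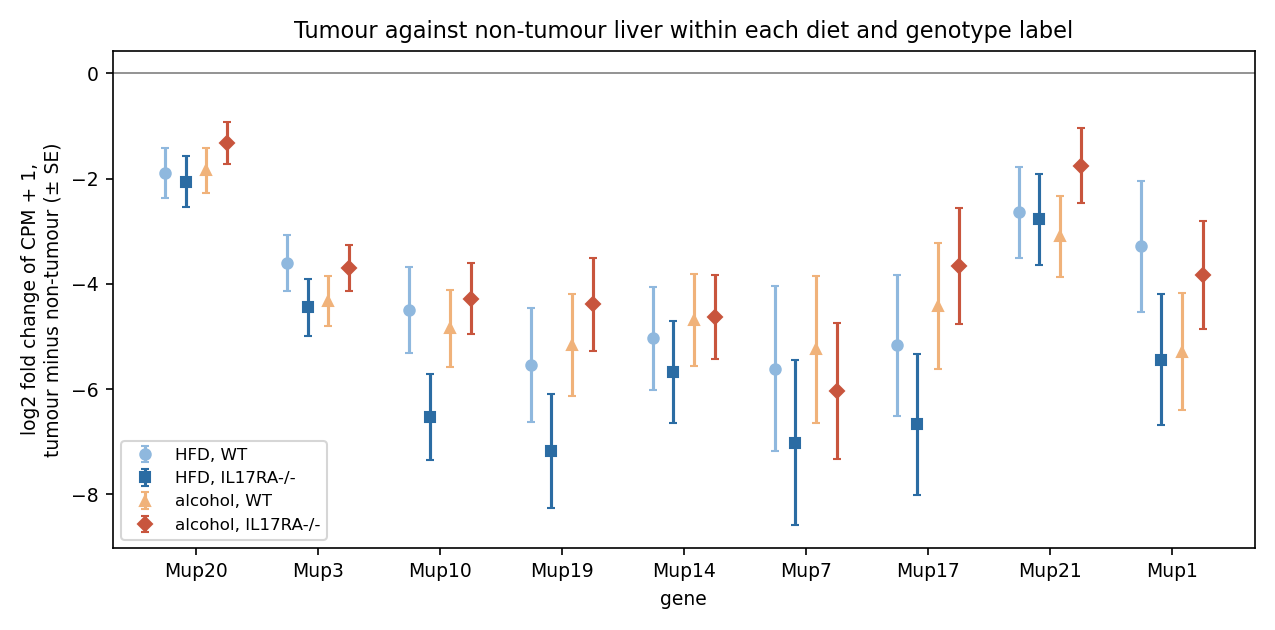
Log2 fold change of CPM + 1, tumour minus non-tumour, with its standard error from limma, for each gene in each combination of diet and genotype label. All 36 values are below 0, Mup20 lies between -2.06 and -1.32, Mup17 and Mup19 vary most between combinations, and Mup7 has the widest errors.

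Group by group, the Mup sum per library in non-tumour liver was 18977, 33943 and 16435 CPM in HFD WT mice. It was 33850, 19034 and 12993 in HFD IL17RA-/- mice. It was 15642, 46309, 21961, 31322 and 33268 in alcohol WT mice, and 16743, 43282, 20777, 37623 and 16118 in alcohol IL17RA-/- mice. Every non-tumour group thus held both high and low libraries, and the 4 groups overlapped.

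In tumours the sum was 5753, 1927 and 3418 CPM in HFD WT mice and 1094, 3932 and 1607 in HFD IL17RA-/- mice. It was 2298, 2474 and 3471 in alcohol WT mice and 5933, 2476, 2982 and 7416 in alcohol IL17RA-/- mice. Ordered by mean, the groups ran from non-tumour alcohol WT (29700 ± 11713 CPM, SD, n = 5) through alcohol IL17RA-/- (26909 ± 12652, n = 5), HFD WT (23118 ± 9460, n = 3) and HFD IL17RA-/- (21959 ± 10732, n = 3) to tumour alcohol IL17RA-/- (4702 ± 2366, n = 4), HFD WT (3699 ± 1928, n = 3), alcohol WT (2748 ± 632, n = 3) and HFD IL17RA-/- (2211 ± 1512, n = 3). The step from the lowest non-tumour to the highest tumour group is the one place in this order where neighbouring groups did not overlap.

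The make-up of the sum differed between tissues. Mup20 held 18.3% to 75.2% of the sum in non-tumour libraries (median 29%) and 61.6% to 90.3% in tumours (median 81.8%), and it was the highest of the 9 in 13 of 13 tumours. Within each combination of diet and genotype label the share of Mup20 was higher in every tumour than in every non-tumour library. In HFD WT mice it was 55.8%, 26.4% and 75.2% in non-tumour liver and 82.0%, 90.3% and 81.8% in tumours. In alcohol WT mice it was 26.6%, 18.3%, 27.4%, 31.2% and 21.1% in non-tumour liver and 78.0%, 72.4% and 61.6% in tumours. Mup7 held up to 20.1% of the sum in non-tumour liver and at most 3.16% in tumours, and Mup3 13.3% to 31.7% and 7.52% to 14.2%. These shares were not tested.

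**Figure D3:**
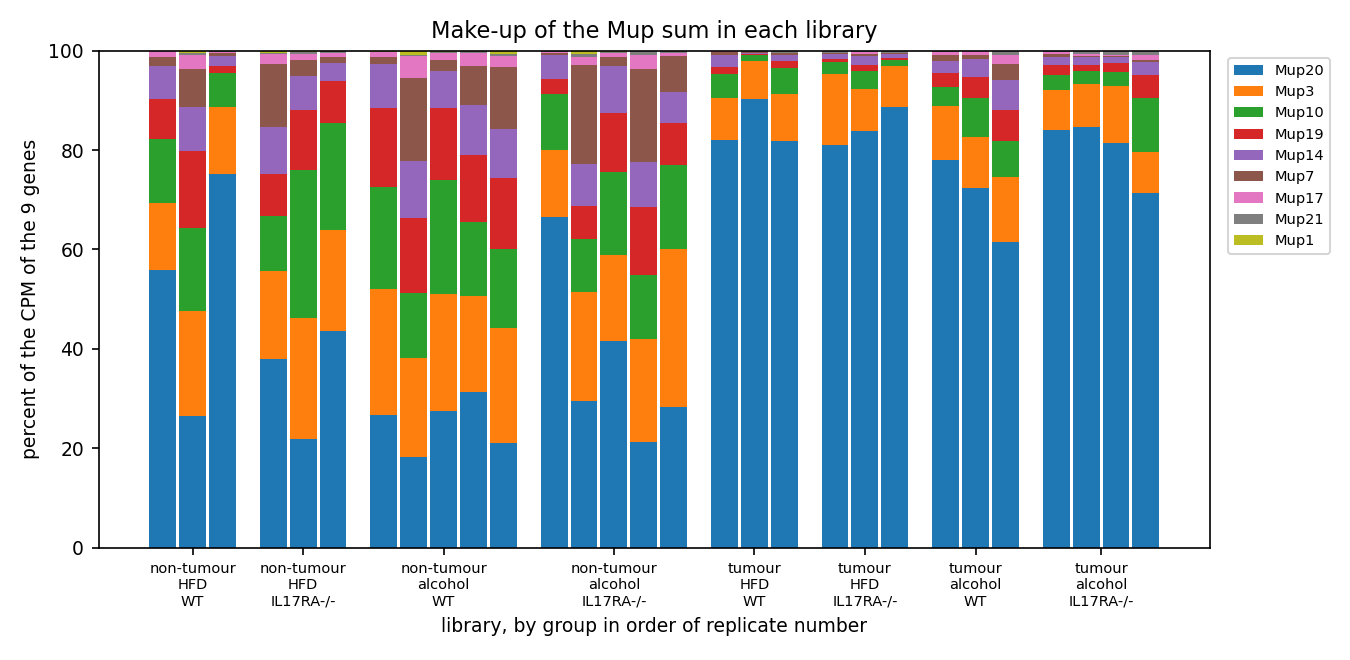
Each bar is 1 library and splits the CPM of the 9 genes into the percent held by each gene, with libraries ordered by group and replicate number. Mup20 takes between 18.3% and 75.2% of a non-tumour bar and between 61.6% and 90.3% of a tumour bar.

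Among the non-tumour livers Mup7, Mup1 and Mup17 varied far more than Mup20. Mup7 was 349, 2570 and 114 CPM in HFD WT mice and 4238, 588 and 171 in HFD IL17RA-/- mice. In alcohol WT mice it was 223, 7706, 491, 2455 and 4153, and in alcohol IL17RA-/- mice 74.7, 8693, 376, 7063 and 1175. Each of the 4 groups thus held both high and low libraries, and the highest non-tumour library was 116 times the lowest, both of them alcohol IL17RA-/-.

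Mup20 spanned 3.1-fold over the same libraries. In the alcohol IL17RA-/- group, where Mup7 ran from 74.7 to 8693 CPM, Mup20 was 11150, 12802, 8635, 7990 and 4567. The pooled standard deviation within groups, on the log2(CPM + 1) scale, was 2.47 for Mup7, 2.08 for Mup1, 1.96 for Mup17, 1.29 for Mup21, 1.26 for Mup19, 1.14 for Mup14, 0.72 for Mup3, 0.64 for Mup10 and 0.56 for Mup20 in non-tumour liver. The copies therefore differed in their spread as well as in their level, although the split of shared reads enters both.

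The central copies moved together from library to library, and Mup20 did not follow them in non-tumour liver. Over the 16 non-tumour libraries the Pearson correlation of log2(CPM + 1) between central copies was 0.71 to 0.95 for the 15 pairs. Mup3 correlated with them at 0.79 to 0.95 and Mup21 at 0.63 to 0.92, although both have mostly unshared sequence. Mup20 correlated with them at -0.25 to 0.19 and with Mup3 at -0.00. Over the 13 tumours the values were 0.73 to 0.97 among central copies, 0.79 to 0.94 for Mup3 with them, 0.45 to 0.85 for Mup21 and 0.63 to 0.79 for Mup20. Mup20 correlated with Mup3 at 0.86 there. These are descriptions over libraries that share a common scaling, the central copies also share reads, and the difference between tissues was not tested.

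**Figure D4:**
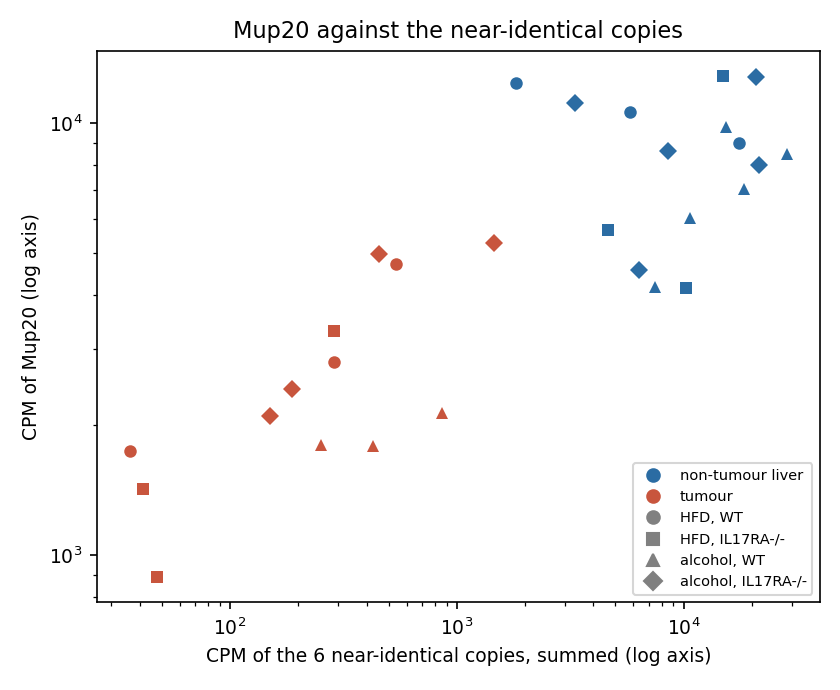
Each point is 1 library, with the summed CPM of the 6 central copies and the CPM of Mup20 both on log axes, blue for non-tumour liver and red for tumours. In non-tumour liver Mup20 stays between 4154 and 12877 CPM while the copies run from 1823 to 28490, and in tumours both are lower, with the copies between 36.2 and 1461.

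No Mup gene was called for the genotype label. The 4 comparisons of libraries labelled IL17RA-/- with WT, within diet and tissue, called 0 of 9 genes each by limma, and limma-voom on the recovered counts also called 0. At an unadjusted p under 0.05 there was 1 gene of 9 in alcohol tumours, where 1.97% of all genes passed. There were 0 in HFD tumours (22.5% of all genes), in non-tumour alcohol liver (2.57%) and in non-tumour HFD liver (3.59%). Of all genes tested, 0% were called in 3 of these comparisons and 1.61% in HFD tumours. In HFD tumours 8 of 9 Mup genes had negative values, with a median of -0.72 against -0.09 over all genes. Mup20 was 887, 3300 and 1424 CPM in the libraries labelled IL17RA-/- and 4718, 1741 and 2797 in WT. The 2 groups overlapped, and the log2 fold change was -0.82 ± 0.49 (SE), with an adjusted p of 0.34 by limma, the smallest of the 9.

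In non-tumour liver the genotype values pointed both ways. By means of log2(CPM + 1), 7 of 9 genes were lower in alcohol liver labelled IL17RA-/-, from -1.47 for Mup17 to 0.32 for Mup20, and 8 of 9 were higher in HFD liver, from -0.65 for Mup20 to 2.11 for Mup1, with standard errors of up to 1.77. By mean CPM 6 of 9 were lower in alcohol liver and 5 of 9 higher in HFD liver, so the direction of several genes turned with the scale. The smallest adjusted p by limma was 0.9, in HFD liver. With this spread a difference of several fold in Mup1, Mup7 or Mup17 could not be told from the spread between libraries.

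Diet likewise gave no call among the 9, in any of 4 comparisons of alcohol with HFD, by limma or by limma-voom on recovered counts. Over all genes 0% were called in 3 of these comparisons and 0.00754% in WT tumours. At an unadjusted p under 0.05 there were 5 of 9 Mup genes in tumours labelled IL17RA-/- (2.21% of all genes), 2 in WT non-tumour liver (4.22%), 1 in WT tumours (16%) and 0 in non-tumour liver labelled IL17RA-/- (5.81%). In tumours labelled IL17RA-/- all 9 values were above 0 on alcohol, with a median of 1.60 against -0.00 over all genes, and the smallest adjusted p was 0.9999 by limma. Mup21 there was 15.98, 15.49, 26.1 and 57.6 CPM on alcohol and 4.57, 12.6 and 6.95 on HFD. It was the one gene of the 9 without overlap in this comparison, where 3.62% of all genes were higher without overlap. The mean of the Mup sum there was 2.13 times higher on alcohol, 4702 against 2211 CPM, and the log2 ratio of 1.09 became 1.80 without HFD tumour replicate 5.

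In WT tumours Mup17 was 16.6, 15.6 and 62.6 CPM on alcohol and 9.53, 0.65 and 4.48 on HFD. It did not overlap between the diets, where 3.16% of genes were higher without overlap, and its log2 fold change of 2.54 ± 1.04 (SE) had an adjusted p of 0.27 by limma. In WT non-tumour liver 8 of 9 genes were higher on alcohol, with a median of 1.27 against -0.08 over all genes, while Mup20 was at -0.63 ± 0.39. Comparisons of diet and of genotype label share libraries, so their values are not independent of each other.

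None of the 6 interaction tests (genotype by diet in each tissue, tissue by genotype in each diet, tissue by diet in each genotype) called a Mup gene by limma or by limma-voom. At an unadjusted p under 0.05 there was 1, Mup20, for genotype by diet in tumours (1.66 ± 0.67, adjusted p = 0.33), where 13.2% of all genes passed. There was also 1, Mup10, for tissue by diet in mice labelled IL17RA-/- (2.24 ± 1.06, adjusted p = 0.995), where 4.55% passed, and there were 0 in the other 4 tests. A difference of the tissue effect between diets or genotype labels was thus not shown. Over all genes 0% to 0.00736% were called in these tests.

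The other Mup genes in the table were lower in tumours as well. Of the 12, 10 passed the filter and 10 were called lower, where 27% of all genes were. Of these 10, 3 (Mup2, Mup6 and Mup13) passed through non-tumour liver alone, with fewer than 3 tumour libraries at 1 CPM, so a difference was built into their selection. Mup11, the most abundant of them, ran from 140 to 3602 CPM in non-tumour liver and from 3.26 to 228 in tumours. Mup18 ran from 79.5 to 391 and from 3.12 to 22.1 CPM without overlap. Mup4 was listed at 0 in every library. Of the 3 nearest tested protein-coding genes on each side of the cluster none was called lower by limma. Snx30 (0.22 ± 0.09, adjusted p = 0.025) on one side and Zfp37 (1.98 ± 0.19, adjusted p = 2.6e-09) on the other were called higher, and Inip, E130308A19Rik, Slc31a2 and Fkbp15 lay between -0.05 and 0.23 without a call.

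Lists of genes known for sex-biased or growth-hormone-dependent expression in liver were read against all genes tested, of which 36.6% were called higher and 27% lower in tumours, with a median log2 fold change of 0.09. Of 24 male-biased liver genes other than Mup that were tested, 21 were called lower in tumours and 1 higher, with a median log2 fold change of -2.05. All 24 passed the filter on non-tumour libraries alone and 22 on tumours alone. A difference was thus built into the selection of the rest. Ugt2b1, a glucuronosyltransferase, went from a median of 851 to 89.5 CPM, and Cyp2d9, a steroid hydroxylase, from 1143 to 237. Egfr was called lower by less (1234 to 560 CPM, log2 fold change -0.63 ± 0.25). Serpina1e was not called (1566 to 716 CPM, -0.66 ± 0.56, adjusted p = 0.31 by limma). Of 22 female-biased genes 9 were called higher and 2 lower, with a median of 0.61. The count called higher is near the 36.6% over all genes. Of the 22, 17 passed the filter on non-tumour libraries alone and 19 on tumours alone. For the others a difference may be built into their selection. Cyp2a4, a steroid hydroxylase, went from a median of 133 to 3199 CPM, and Abcd2, a peroxisomal fatty acid transporter, from 28.8 to 151, while Prlr, the prolactin receptor, was called lower (86.8 to 18.4 CPM).

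Of 16 genes of growth hormone signalling 4 were called lower and 0 higher, with a median of -0.05. Over all genes 27% were called lower and 36.6% higher, so the count called lower is near the share over all genes. Ghr, the growth hormone receptor, ran from 422 to 868 CPM in non-tumour liver and from 80.5 to 227 in tumours, without overlap (-2.30 ± 0.12, adjusted p = 2.3e-13 by limma). Igf1, a target of that receptor, went from a median of 725 to 52.0 CPM. Stat5b had medians of 68.2 and 62.7 CPM (-0.10 ± 0.08, adjusted p = 0.26), and Hnf4a, a transcription factor of hepatocytes, medians of 590 and 618 (0.10 ± 0.07, adjusted p = 0.22). Of 9 nuclear receptor and Zhx genes 6 were called lower, where 27% of all genes were. Zhx2, a regulator of Afp and Mup genes in mouse liver, was not called (0.15 ± 0.11, adjusted p = 0.24).

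Of 22 other abundant secreted proteins of hepatocytes 11 were called higher and 6 lower, with a median of 0.27. Over all genes 36.6% were called higher and 27% lower, so the count called lower is near that share. Alb, serum albumin, went from a median of 39296 to 104262 CPM and Trf, transferrin, from 18151 to 45088. Of 9 other lipocalins 4 were called higher and 5 lower: Lcn2, an iron-siderophore carrier, went from a median of 111 to 866 CPM, Ambp and Rbp4 were called higher, and Orm1, an acute phase protein, was called lower (log2 fold change -1.59). Ambp is in both this list and that of secreted proteins. All 9 lipocalins passed the filter on non-tumour libraries alone and 8 on tumours alone, so a difference was built into the selection of the other.

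Markers of cell types and zones moved between the tissues too. The counts of calls below are to be read beside all genes tested, of which 36.6% were called higher and 27% lower. The summed hepatocyte markers, to which Alb contributes most, ran from 51907 to 86623 CPM in non-tumour liver and from 73063 to 176925 in tumours. The median log2 fold change of the 8 markers was -0.27. Of 8 pericentral hepatocyte markers 7 were tested, and all 7 were called lower (summed 5396 to 12368 against 223 to 4073 CPM). Cyp2e1 is in both this list and the hepatocyte list. Also called lower were 6 of 7 periportal markers (4251 to 9776 against 1066 to 3976) and 6 of 6 Kupffer cell markers (174 to 1319 against 88.3 to 393). Of 5 cholangiocyte markers 4 were called higher (24.2 to 138.5 against 87.5 to 1661 CPM). Krt19, Sox9 and Epcam are in both this list and that of tumour and fetal liver markers, so the 2 counts are not independent. All 13 tested tumour and fetal liver markers were called higher, Afp from a median of 7.52 to 308 CPM. Of the 13, 11 passed the filter on non-tumour libraries alone and all 13 on tumours alone. A difference was therefore built into the selection of the rest. Of the 8 hepatocyte markers 3 were called higher and 4 lower, of 5 stellate cell markers 3 higher and 2 lower, of 5 T and NK cell markers 1 higher, of 4 sinusoidal endothelial markers 1 lower, and of 3 B cell markers none. The 3 of 8 hepatocyte markers called higher and the 1 of 4 endothelial markers called lower are near the shares over all genes. Of 10 markers of salivary, lacrimal and skin glands, other tissues where Mup genes are made, 2 passed the filter, Amy1 (called lower) and Krt5 (called higher). Only 1 of these 2 passed it on non-tumour libraries alone, so a difference was built into the selection of the other. No marker of the liver cell lists was at 0 in all libraries, and their part in the fall of the Mup genes was not tested.

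Genes most like the Mup sum were found among 9338 genes with a mean of at least 5 CPM in both tissues. Left out of these were the Mup genes, predicted genes (Gm followed by digits, or Rik) and genes without a symbol. Likeness was Pearson's r of log2(CPM + 1), computed apart in the 16 non-tumour and the 13 tumour libraries. Genes were ranked by the lower of the pair of correlations. Cyp7b1, an oxysterol hydroxylase of bile acid synthesis, came first by this rule, with r of 0.86 in non-tumour liver and 0.84 in tumours. It ran from 78.4 to 811 CPM in non-tumour liver and from 2.66 to 62.9 in tumours. Next were Slco1a1, an uptake transporter of organic anions (0.79 and 0.80), Acadsb, a dehydrogenase of branched-chain acyl-CoA (0.83 and 0.78), the pseudogene Adh6-ps1 (0.82 and 0.77) and Ces3a, a carboxylesterase (0.76 and 0.86), which had the higher value of the 5 in tumours.

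Without the 2 libraries farthest from the median Mup sum, r for Cyp7b1 was 0.81 in non-tumour liver and 0.80 in tumours, and Spearman's rho over all libraries was 0.80 and 0.86. For Slco1a1 these were 0.74 and 0.78, and 0.75 and 0.84. Among the genes with the most opposite pattern were Plce1, a phospholipase C (-0.73 and -0.80), and Cnbd2 (-0.77 and -0.69). Since the genes were picked for these values, no p is given. The sum also mixes the genes differently in each tissue. Mup20 held 2641 of the mean 3340 CPM in tumours and 8583 of 25421 in non-tumour liver.

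**Figure D5:**
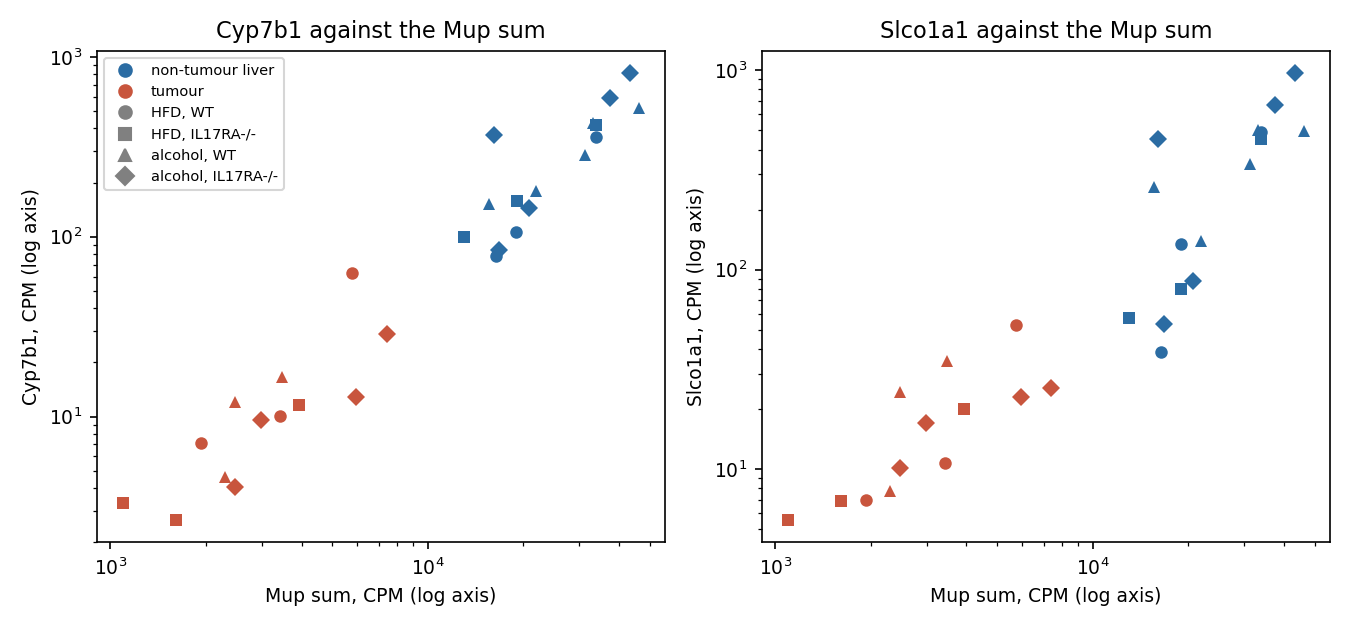
Each point is 1 library, with the Mup sum and the CPM of Cyp7b1 (left) or Slco1a1 (right) on log axes, blue for non-tumour liver and red for tumours. Within each tissue the libraries with a higher Mup sum tend to hold more of both genes. The r was 0.86 and 0.84 for Cyp7b1 and 0.79 and 0.80 for Slco1a1. Mup20 makes up most of the sum in tumours.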

How the data were processed

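RNA from tumours and non-tumour liver was sequenced from polyA-selected stranded libraries, per the labels' protocols. The submitters' processing notes name STAR 2.5.1a, RSEM 1.3.0 and GRCm38, in no stated order. The sources used here do not give the annotation or a filter. The authors deposited CPM for 22187 genes. Values were multiples of a step worth 1 count, which gave the depths: 83.4% to 86.2% of nonzero values were whole counts within 0.002, and all were whole hundredths, as RSEM's expected counts are. Symbols came from the reference gene table (21653 IDs had one, 534 had none).

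Two-sided tests came from limma 3.58.1 (R 4.3.3), fitted with a variance trend to log2(CPM + 1). Genes entered a fit if 3 or more of its libraries reached 1 CPM. Genes with a Benjamini-Hochberg adjusted p under 0.05 were called. Tissue comparisons and tissue interactions used all 29 libraries, the others the 16 non-tumour or 13 tumour libraries. The scripts were tested on simulated data. Groups and replicate numbers come from the sample titles. Coding sequences were aligned with Biopython 1.88.

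The alternatives tried were: CPM recomputed without Mup genes, rescaling by median ratios, a pseudocount of 0.1, no low-value filter, only the 2 groups compared, all 29 libraries, limma-voom on recovered counts, a replicate block, leaving out each library, and leaving out 4 libraries that an earlier description doubted, the last chosen after seeing the data. The members and lists were chosen with earlier results of these data known. Named genes were the 9 members, the other Mup genes, up to 4 highly expressed members of each list, and Afp, Igf1, Stat5b, Ghr, Zhx2 and Il17ra, plus 5 genes most and 3 least like the Mup sum, of which 1 is not reported here.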

Additional observations from a re-analysis of the deposited data

Results flagged for a closer look

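In 30 sets of 4 or 5 libraries (the 9 genes and the Mup sum in the 3 groups of that size) a library far from the others was looked for with Dixon's test on linear CPM at the 95% level, which chance passes in about 1 of 20 sets if values are normally distributed. It found 2, and 0 on the log2(CPM + 1) scale, where the gap was 0.45 of the range for the first (critical value 0.71) and 0.58 for the second (0.829). Mup1 in non-tumour alcohol IL17RA-/- replicate 2 was 243 CPM, against 5.58 to 46.2 in the other 4 libraries. Mup10 in tumour alcohol IL17RA-/- replicate 7, the shallowest library, was 808 CPM, against 62.8 to 184 in the other 3. Both are central copies, whose single values share reads with their neighbours.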

How the results depend on the processing

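No log2 fold change of a Mup gene that was recomputed changed sign under the alternatives run. The ratio of the Mup sum, which has no test, changed sign in 3 comparisons within a tissue when 1 library was left out. On the log2 scale, alcohol non-tumour liver labelled IL17RA-/- over WT ran from -0.38 to 0.07 (0.07 without WT replicate 2), HFD non-tumour liver labelled IL17RA-/- over WT from -0.53 to 0.31 (0.31 without WT replicate 2), and alcohol over HFD in WT tumours from -0.74 to 0.04 (0.04 without HFD replicate 4). The HFD non-tumour ratio, -0.07, was also above 0 after median-ratio rescaling (0.02), without the 4 doubted libraries (0.07), and without IL17RA-/- replicate 2 (0.02) or 3 (0.19). All 9 genes stayed called lower in tumours over the mean of the 4 combinations under every alternative run, and 0 were called for genotype, diet or interaction under each. The count in HFD WT mice was 5 with only the 2 groups compared, in place of 8, and 4 to 9 when 1 library was left out. The log2 ratio of the Mup sum, HFD IL17RA-/- tumour over non-tumour, was -3.31 and ran from -4.02 to -2.86 when 1 library was left out. Against HFD WT tumours it was -0.74 (-1.45 to -0.27), and alcohol over HFD in tumours labelled IL17RA-/- it was 1.09 (0.76 to 1.80). Of single-gene values, 13 calls were lost and 4 gained over the other alternatives, and 11 and 4 when 1 library was left out, all in comparisons of tissues within 1 combination. Under limma-voom 8 genes were called in alcohol IL17RA-/-, 8 in alcohol WT, 6 in HFD IL17RA-/- and 6 in HFD WT mice. Mup1 lost its call in 3 combinations (-4.96, -6.80 and -8.12, adjusted p of 0.13, 0.14 and 0.22), and Mup17 and Mup21 each lost theirs on HFD under both genotype labels.

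With the replicate number as a block, 0 members were called for genotype or diet, and 8 and 9 in alcohol IL17RA-/- and alcohol WT mice, as without it. On HFD, tumour and non-tumour libraries share no replicate number. The block was therefore not fitted for tissue on HFD or over the mean of all combinations. With the block, Mup20 in alcohol IL17RA-/- mice lost its call (-1.39, adjusted p = 0.06) and Mup21 gained one (-3.08, adjusted p = 0.0025). The labels state no pairing. In alcohol against HFD in WT non-tumour liver the deviations of same-numbered libraries correlated at 0.33, 0.257 and 0.13, each best with its own number, which is a hint from the data. Depth limits Mup1, Mup17 and the low Mup genes in tumours, where values lie near 3 counts.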
